A study of Mus musculus with 2 samples.

Results

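The genes described are 10 members of the bone morphogenetic protein (BMP) pathway: the ligands Bmp4 and Bmp7, the secreted antagonist Fst, the receptors Bmpr1a and Bmpr2, the inhibitory Smads Smad6 and Smad7, and the target genes Id1, Id2 and Id3. They were taken by exact match of the gene symbol in the platform annotation, which gave 18 probes for the 10 genes, of 19057 genes named on the array. Expression was compared between the fibers and the epithelium of the mouse lens at embryonic stage E12.5, with 1 Illumina whole-genome array for each. Both samples were wild type, and the sources used here do not give the strain, the number of embryos pooled or the way in which fibers and epithelium were separated. With 1 array per group there is no replicate error, so no test was run, and each difference describes these 2 arrays.

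BMP ligands bind paired type I and type II receptors on the cell surface, here Bmpr1a and Bmpr2, and the activated type I receptor phosphorylates Smad1, Smad5 and Smad9, which enter the nucleus with Smad4. Id1, Id2 and Id3 are direct transcriptional targets in many cell types and encode helix-loop-helix proteins without a DNA-binding region, which sequester basic helix-loop-helix (bHLH) factors. Smad6 and Smad7 inhibit the pathway inside the cell and follistatin, the product of Fst, traps activins and some BMPs outside it. In the mouse eye, Bmp4 and Bmp7 are known for their part in the induction of the lens, and BMP signalling is also known for a part in the elongation of the primary fibers.

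Id2 and both receptors were higher in fibers, Fst was higher in epithelium, and the ligands, Smad7, Id1 and Id3 gave no signal above background on either array. Id2 read 2236 in fibers and 218 in epithelium, a 10.3-fold difference. Bmpr2 was 2.90-fold and Bmpr1a at least 2.27-fold higher in fibers, and Fst was at least 2.60-fold lower in fibers. Of these, Id2 alone stayed past 2-fold under all 9 alternatives run for the ratios. Both receptors were under 2-fold when scaled to housekeeping genes (1.62-fold for Bmpr2 and at least 1.27-fold for Bmpr1a), Bmpr1a had no direction with a stricter background limit, and Fst was under 2-fold after a loess fit or with a common limit. Smad6 was just above background in fibers, with no direction. These values and all others below are quantile-normalized intensities unless said otherwise, and every log2 ratio is fibers over epithelium.

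The promoters of the genes that were higher in fibers, and that of Id3 as a member of the Id family without signal, are shown to set the sequence upstream of these genes beside their values. They are the 250 bases upstream of the annotated start from RefSeq on GRCm38.p6, read 5′ to 3′ on the strand of the gene. Id2 lies on the minus strand (chr12:25096093-25096342), as does Bmpr1a (chr14:34502547-34502796), and Bmpr2 (chr1:59764029-59764278) and Id3 (chr4:136143572-136143821) lie on the plus strand. Capitals mark the GC-rich Smad motif GGCGCC, which is its own reverse complement, and the Smad motif CAGAC or its reverse complement GTCTG.
Id2 promoter: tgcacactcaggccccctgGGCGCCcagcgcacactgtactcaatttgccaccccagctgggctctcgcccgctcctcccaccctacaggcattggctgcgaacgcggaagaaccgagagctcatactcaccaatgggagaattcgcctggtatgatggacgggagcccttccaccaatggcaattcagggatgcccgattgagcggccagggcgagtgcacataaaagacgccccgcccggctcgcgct
Bmpr1a promoter: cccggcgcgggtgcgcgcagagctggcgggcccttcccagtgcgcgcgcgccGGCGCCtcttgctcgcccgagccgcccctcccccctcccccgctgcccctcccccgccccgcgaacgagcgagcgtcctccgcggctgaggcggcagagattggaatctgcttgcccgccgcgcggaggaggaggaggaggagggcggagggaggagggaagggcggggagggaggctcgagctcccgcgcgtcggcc
Bmpr2 promoter: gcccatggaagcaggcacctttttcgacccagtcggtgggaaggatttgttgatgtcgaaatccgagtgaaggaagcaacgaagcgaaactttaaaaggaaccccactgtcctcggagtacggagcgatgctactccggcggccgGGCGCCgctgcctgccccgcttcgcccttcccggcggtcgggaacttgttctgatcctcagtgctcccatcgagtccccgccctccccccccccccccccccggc
Id3 promoter: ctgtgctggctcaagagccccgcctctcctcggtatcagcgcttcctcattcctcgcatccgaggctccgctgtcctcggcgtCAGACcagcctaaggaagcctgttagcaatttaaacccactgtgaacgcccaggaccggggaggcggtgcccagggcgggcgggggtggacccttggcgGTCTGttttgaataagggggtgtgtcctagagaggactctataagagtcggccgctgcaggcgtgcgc

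A promoter was used for 6 of the 10 genes, and Bmp7, Fst, Smad7 and Id1 are named only. Any window of the 10 genes on a single filtered chromosome was left out. Which of Bmp7, Fst, Smad7 and Id1 lack a window for that reason, if any, was not checked. GGCGCC was present once in each of the 3 genes higher in fibers, beginning 231 bases upstream of the start in Id2, 198 in Bmpr1a and 105 in Bmpr2. It was not present in these windows of Id3, Bmp4 and Smad6. Id3 alone of the 6 held CAGAC or GTCTG, at 167 and 68 bases upstream, and in none of the 6 windows did the motifs overlap. Of 32851 promoter windows of the same length, 9.59% held GGCGCC and 42.2% held CAGAC or GTCTG. The 6 windows were GC-rich, between 62.8% and 78.8% GC against a median of 52.4% over all windows. Among the 7115 windows with at least 62.8% GC, 29.2% held GGCGCC and 36.3% held CAGAC or GTCTG. The matches describe letters in these windows and are not evidence of binding.

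A probe was counted as measured on an array when it exceeded the floor of that array, the 95th percentile of 1575 probes for 1303 receptor and hair-keratin-associated genes taken to be silent in lens. The floor was 32.1 on the fibers array and 44.6 on the epithelium array. Genes that exceeded both floors have a ratio. For genes that exceeded 1 floor, the fold is a bound, in which the floor of the dim array stands in for the dim value, and it is written "at least". Of the 19057 genes, each represented by its brightest probe, 6451 were measured, 2986 of them on both arrays. Among the measured genes, 15.5% reached 2-fold towards fibers and 18.5% towards epithelium. Those shares depended on the scaling. They were 21.4% and 13.5% after a loess fit, which moved the median log2 ratio of all measured genes by 0.18, and 4.58% and 42.7% with arrays scaled to housekeeping genes, where that median was -0.58.

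The labels were checked against known markers. All 11 fiber markers on the array, among them the crystallins Cryaa and Crybb1 and the water channel Mip, were higher in fibers, from at least 3.99-fold for Bfsp2 to 18.5-fold for Crybb1. Of the 11, 9 also exceeded the floor in epithelium, from 77.3 for Grifin to 3206.5 for Mip, which read 19878 in fibers. Lim2 and Bfsp2 were below that floor, at 10.9 and 11.9. The sum over the fiber list was 62713.5 in fibers and 8268 in epithelium, where the 6 epithelium markers summed to 1907.5. The part of fiber RNA in the epithelium values, that of Id2 included, was not tested. Of 6 epithelium markers, Cdh1, Pdgfra, Gja1 and Pax6 were at least 2-fold higher in epithelium, Foxe3 was below the floor on both arrays, and Cryab lay the other way, with 57.2 in fibers and 35.8 in epithelium (a log2 bound of 0.36). Housekeeping genes leaned to the fibers side as well: 15 of 18 measured had a positive log2 ratio or bound, 8 of them reached 2-fold, and the median was 0.83. Of the 18, 7 exceeded the fibers floor alone, so their values are bounds, which could not be negative. In bulk tissue, fewer cells of a type and less RNA per cell cannot be told apart.

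Against this background, 5 of the 10 genes were measured. Of these, 3 reached 2-fold towards fibers, as did 15.5% of all measured genes, and 1 towards epithelium, as did 18.5%. The median log2 value of the 5 was 1.18, the bound of Bmpr1a, against 0.00 over all measured genes, bounds included. Among all measured genes, 773 bounds were set to 0. The median of the genes measured on both arrays was -0.19. Counted by probe, 10 of 18 exceeded at least 1 floor, 6 reached 2-fold towards fibers (14.8% of all measured probes did) and 1 towards epithelium (17.6%). These 6 probes belong to 3 genes. The genes were chosen with earlier results of these data known, so the counts are a description.

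**Figure D1:**
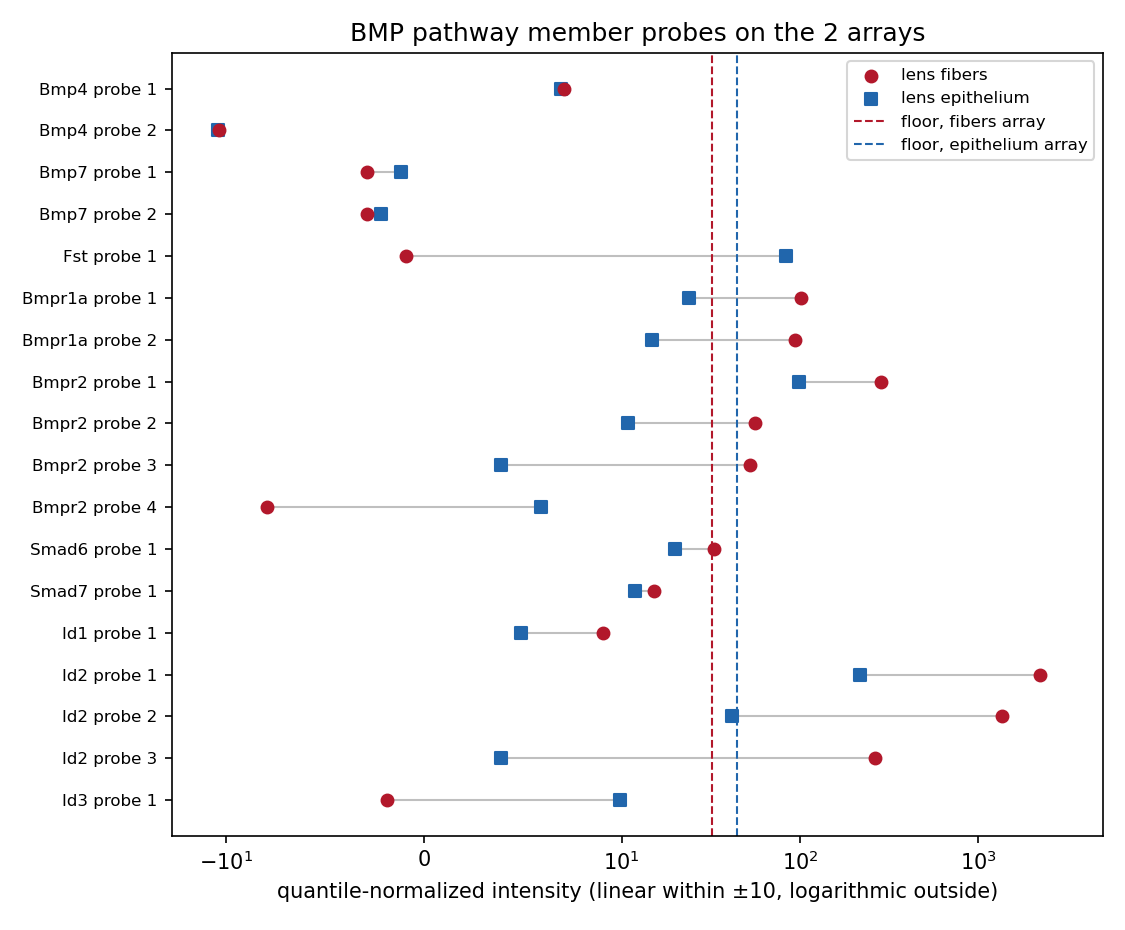
Quantile-normalized intensity (horizontal axis, linear within 10 of 0 and logarithmic outside) of each of the 18 probes, with lens fibers as red circles, lens epithelium as blue squares and the floor of each array as a dashed line in its colour. Probes of a gene are numbered from the brightest; all 3 Id2 probes lie above the fibers floor in fibers, with 265.5 as the lowest, while the probes of Bmp4, Bmp7, Smad7, Id1 and Id3 lie below the floor on both arrays.

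Id2, whose protein binds and holds back bHLH transcription factors, had 3 probes, and all 3 were higher in fibers. The brightest, ILMN_1236868, annotated to a cDNA clone, read 2236 in fibers and 218 in epithelium, and exceeded both floors (log2 ratio 3.36, 10.3-fold). The second, ILMN_1228557, annotated to the RefSeq mRNA, read 1362 in fibers and 41.6 in epithelium, just below the floor there, a difference of at least 30.5-fold. The third, ILMN_2887239, also annotated to the RefSeq mRNA, read 265.5 in fibers and 3.90 in epithelium, at least 5.95-fold higher in fibers. The size therefore differed between probes while the direction did not. None of the 1575 silent probes reached the fibers value of the first or second probe, and 2 reached that of the third. In epithelium, 8 silent probes reached the value of the brightest Id2 probe.

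With its brightest probe, Id2 stood at rank 12 of the 2986 genes measured on both arrays when ratios were ordered from high to low. The genes next above it were Cd24a, a glycosylated surface protein, at 10.6-fold, and the beta crystallin Crybb3 at 10.3-fold. Those next below it were Adam17, a membrane protease that sheds growth factors, at 10.3-fold and the vesicle membrane protein gene Sypl at 9.95-fold. This likeness rests on 2 arrays and says only that the ratios are of similar size. Neighbouring ranks here differ by far less than probes of the same gene do, whose log2 ratios differed by a median of 0.50 over 472 pairs measured on both arrays.

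Id1 and Id3 had 1 probe each. Id1 read 9.08 in fibers and 4.93 in epithelium, and Id3 read -1.85 in fibers and 9.92 in epithelium, all below the floors. Of the silent probes, 406 were at or above the Id1 value on the fibers array and 422 at or above the Id3 value on the epithelium array. Neither gene was therefore detected, and for both a difference between the tissues could not be measured. Id4, the remaining family member, had 2 probes, which read 9.08 and 5.08 in fibers and 1.90 on each in epithelium, also below the floors. Id2 was thus the Id gene with signal above the floor, under a single probe each for Id1 and Id3.

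**Figure D2:**
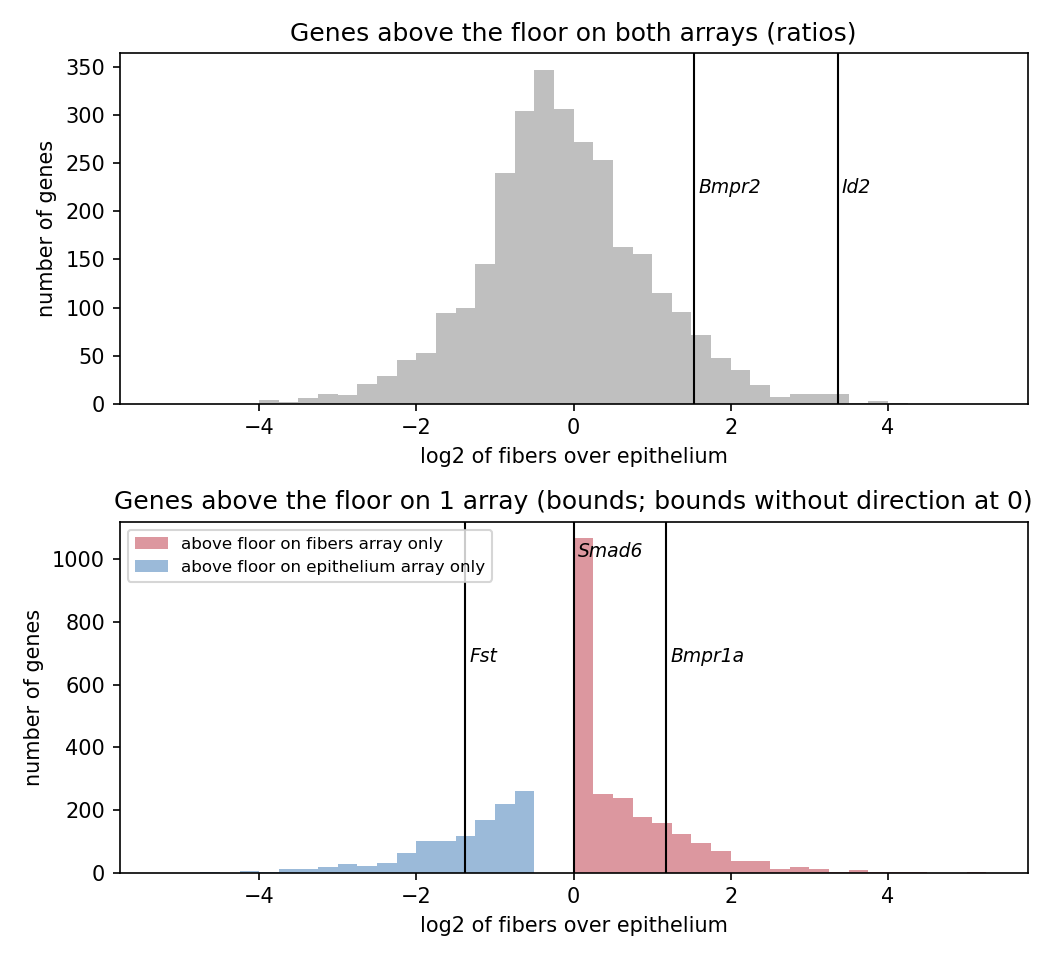
Number of genes (vertical axis) by log2 of fibers over epithelium (horizontal axis), for genes that exceeded both floors (top) and for genes that exceeded 1 floor, whose values are bounds (bottom, with the fibers array in red and the epithelium array in blue). Id2 at 3.36 lies in the far right tail of the upper panel and Bmpr2 at 1.53 on its right shoulder, while the bounds of Bmpr1a at 1.18 and Fst at -1.38 lie within the bulk of the lower panel and Smad6 stands at 0, without direction.

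Both BMP receptors of the set were higher in fibers. Bmpr2, the type II receptor, had 4 probes. The brightest, ILMN_1217466, which the annotation pairs with no transcript, read 286 in fibers and 98.8 in epithelium (log2 ratio 1.53, 2.90-fold), and 6.90% of the genes measured on both arrays had a higher ratio. The probes ILMN_2614324 and ILMN_2614322, annotated to the RefSeq mRNA, were above the floor in fibers only. They read 56.2 and 52.2 in fibers against 10.9 and 3.90 in epithelium, with bounds of 1.26-fold and 1.17-fold. The fourth, ILMN_2768587, also annotated to the RefSeq mRNA, read -7.91 in fibers and 5.91 in epithelium, below both floors. The size of the Bmpr2 difference thus rests on the brightest probe, and with the second brightest in its place the log2 ratio was 0.33, a bound.

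Bmpr1a, the type I receptor also called ALK3, had 2 probes, both annotated to the RefSeq mRNA and both above the floor in fibers only. The brighter, ILMN_2653312, read 101 in fibers and 24.0 in epithelium, at least 2.27-fold higher in fibers, and ILMN_1251119 read 93.9 in fibers and 14.8 in epithelium, at least 2.10-fold. The probes gave nearly the same bound. Of the genes that exceeded the fibers floor alone, 19.5% had a larger bound than Bmpr1a. On the fibers array, 11 of the 1575 silent probes were at or above 101. With the floor at the 99th percentile of the silent probes, 80.8 in fibers and 111 in epithelium, Bmpr1a had no direction.

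The housekeeping median of 0.83 lay on the same side as both receptors, which had 1.53 and 1.18. When the arrays were scaled to those genes, Bmpr2 was 1.62-fold and Bmpr1a at least 1.27-fold higher in fibers, both under 2-fold, and the other Bmpr2 probes had no direction. On the same scale Id2 was 5.77-fold higher in fibers by its brightest probe, and at least 17.1-fold and 3.34-fold by the others. Of the 5 measured genes, 1 then reached 2-fold towards fibers and 1 towards epithelium. After the loess fit, 3 reached 2-fold towards fibers and none towards epithelium.

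**Figure D3:**
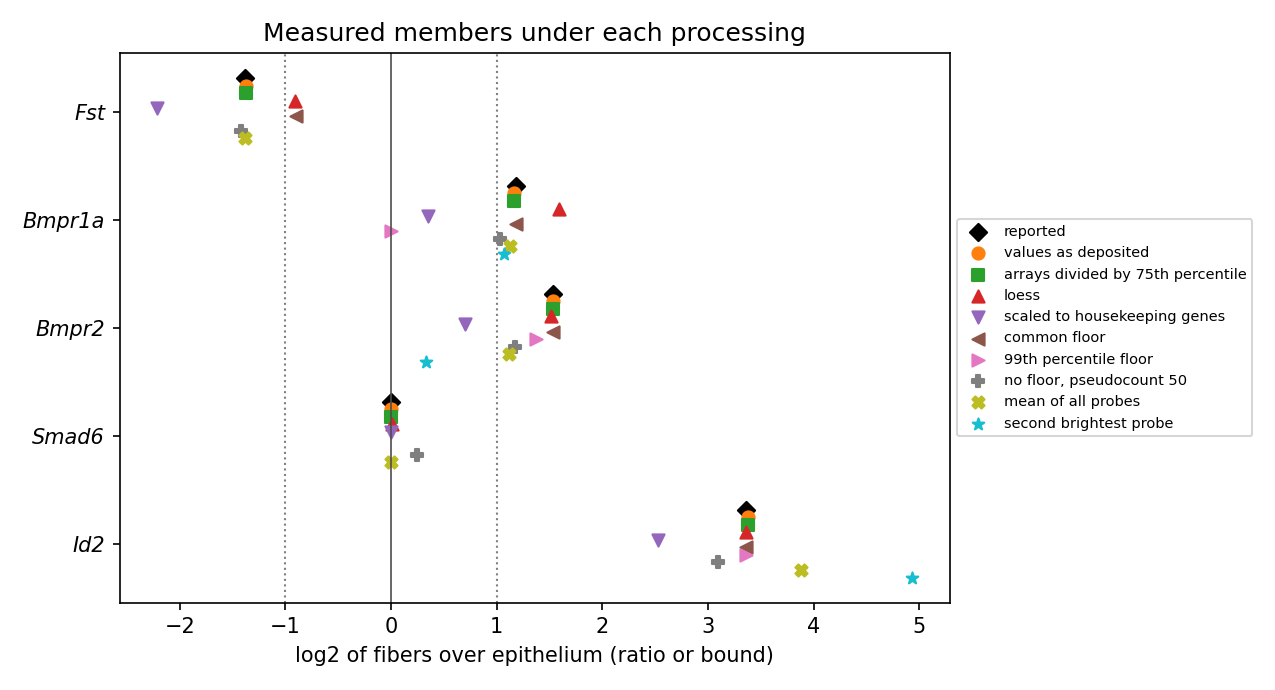
Log2 of fibers over epithelium (horizontal axis) of the 5 measured members under the reported processing (black diamonds) and 9 alternatives (other symbols, named in the legend), with dotted lines at 2-fold. Id2 ran from 2.53 to 4.93 and stayed past 2-fold under all 9, while Bmpr2 ran from 0.33 to 1.53, Bmpr1a from 0.00 to 1.59, and Fst from -2.21 to -0.90 in the 7 alternatives that measured it.

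Fst had 1 probe, ILMN_1228958, annotated to the RefSeq mRNA. It read -0.88 in fibers and 83.5 in epithelium, at least 2.60-fold lower in fibers (log2 bound -1.38). Of the genes that exceeded the epithelium floor alone, 37.8% had a larger bound. Its epithelium value was reached by 30 of the 1575 silent probes. By the same rule 32 silent probes (2.03% of the 1575) were 2-fold or more higher in epithelium and 6 (0.38%) in fibers. Only 124 silent probes exceeded a floor, so these shares are not on the scale of the 18.5% and 15.5%, which are over measured genes. The bound was at least 1.87-fold with 1 common floor of 44.6 and at least 1.88-fold after the loess fit, and Fst was below the floor at the 99th percentile. Scaled to housekeeping genes, it was at least 4.63-fold lower in fibers.

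Markers of neighbouring tissues were in part on the same side as Fst. Of 5 retina markers on the array, 1 was above the floor, Sfrp2 (140 in fibers and 1256 in epithelium), and the sum over the list was 146 in fibers and 1279 in epithelium, with Rax, Lhx2, Sox2 and Six6 below the floors. Of 7 markers of periocular mesenchyme, 1 was above the floor, Tfap2b (36.2 in fibers and 209 in epithelium), and the sum was 76.0 in fibers and 265 in epithelium. Twist1, Foxc1, Foxc2, Col1a1, Col1a2 and Prrx1 were below the floors. By sum, the pigment cell list (114 in fibers and 204 in epithelium) and the macrophage list (80.6 in fibers and 97.5 in epithelium) were also higher in epithelium. The sums for blood vessels, erythroid cells and surface ectoderm were higher in fibers. The measured markers of blood vessels (Tek, at least 1.87-fold), erythroid cells (Hba-a1, at least 1.72-fold, and Hbb-y, 1.02-fold) and surface ectoderm (Krt5, 1.33-fold) were on the fibers side, all but Tek (a log2 bound of 0.90) below the housekeeping median of 0.83. The measured pigment cell markers were Pmel (a log2 bound of -0.80) and Mitf (0.27), and the measured macrophage markers Aif1 (-0.68) and Csf1r, without direction. Below the floors, the pigment cell markers Dct and Mlana read higher in epithelium, and Tyr and Tyrp1 higher in fibers. The part of these tissues in the Fst value was not tested.

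The ligand genes Bmp4 and Bmp7 were below the floor on both arrays with each of their 2 probes. The Bmp4 probes read 7.07 and -10.9 in fibers and 6.92 and -11.1 in epithelium. The Bmp7 probes read -2.87 on each in fibers and -1.15 and -2.14 in epithelium. Of the silent probes, 490 were at or above the brighter Bmp4 value in fibers and 1000 at or above the brighter Bmp7 value in epithelium. No difference was measurable, and a value below the floor does not show that the transcript is absent.

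Smad6, which blocks BMP receptors and Smad1 in particular, had 1 probe, at 33.2 in fibers and 20.0 in epithelium. It passed the fibers floor of 32.1 by a small margin, its bound against the higher epithelium floor lay under 1, and it has no direction. Smad7, which inhibits both BMP and TGF-beta receptors, also had 1 probe, at 15.2 in fibers and 11.9 in epithelium, below both floors. Neither inhibitor gave a measurable difference at this sensitivity.

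The same comparison was made over 8 lists of BMP and TGF-beta pathway genes, which hold these 10 genes and 73 others on the array. Of the 73, 24 were measured, 5 reached 2-fold towards fibers and 1 towards epithelium, against 15.5% and 18.5% of all measured genes. The median log2 value of the 24 was 0.00, with bounds set to 0 included. Scaled to housekeeping genes, the lists with the 10 genes included had 2 members higher in fibers and 9 in epithelium, in place of 8 and 2, out of 28 measured. On that scale 4.58% of all measured genes reached 2-fold towards fibers and 42.7% towards epithelium, so the 9 are no more than the general share.

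Among the 13 BMP ligand genes on the array, Bmp6 was the only gene measured. Its single probe read 0.097 in fibers and 71.8 in epithelium, at least 2.24-fold lower in fibers, and this bound was under 2-fold with a common floor (at least 1.61-fold) and after the loess fit (at least 1.63-fold). Among 15 antagonists, 5 were measured and only Fst passed 2-fold. The others ran from a log2 ratio of -0.75 for Fstl1, a secreted glycoprotein related to follistatin (207 in fibers and 350 in epithelium), to a bound of 0.39 for Bmper, a secreted BMP-binding protein. Scaled to housekeeping genes, Fstl1 also passed 2-fold towards epithelium, with a log2 ratio of -1.59. Twsg1, which modulates the binding of BMPs by chordin, read 63.3 in fibers and 62.7 in epithelium. Noggin and chordin, the classical antagonists encoded by Nog and Chrd, were below the floors.

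Of 11 receptor genes, 5 were measured, and Bmpr2 and Bmpr1a were those past 2-fold towards fibers. Acvr2b, a type II receptor for activins and BMPs, lay the other way, with 301 in fibers and 478 in epithelium (log2 ratio -0.67). Acvr1, the type I receptor ALK2, read 49.1 in fibers and 50.7 in epithelium, and Acvr2a had no direction. Of the receptor-activated Smads of the BMP branch, Smad1 was measured, at 92.0 in fibers and 147 in epithelium (log2 ratio -0.67), and Smad5 and Smad9 were below the floors. Scaled to housekeeping genes, Acvr2b and Smad1 passed 2-fold towards epithelium, with log2 ratios of -1.50 and -1.51.

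Of 9 inhibitory Smads, ligases and Smad co-repressors, 6 were measured, and 2 reached 2-fold towards fibers. Tob1, an antiproliferative protein that also binds Smads, read 222 in fibers and 4.93 in epithelium, at least 4.98-fold higher in fibers, and at least 2.79-fold when scaled to housekeeping genes. Skil, which encodes the Smad co-repressor SnoN, read 99.3 in fibers and 36.8 in epithelium, at least 2.23-fold higher in fibers. A second Skil probe gave at least 1.74-fold, the other was below the floors, and scaled to housekeeping genes the bound was at least 1.25-fold. The phosphatase gene Ppm1a had a log2 ratio of 0.92, Nedd4l a bound of 0.23, and Ski no direction.

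Of 13 target genes, 2 were measured, Id2 and Hey1. Hey1, a bHLH repressor that responds to Notch as well as to BMP, read 113 in fibers and 29.9 in epithelium, at least 2.54-fold higher in fibers and at least 1.42-fold when scaled to housekeeping genes. Msx1 and Msx2, homeobox targets of BMP signalling, were below the floors. Id proteins bind the bHLH factors encoded by Tcf3, Tcf4 and Tcf12. Tcf12 read 181 in fibers and 82.6 in epithelium (2.19-fold) by the brightest of 4 probes, with the other 3 below the floors, and 1.23-fold when scaled to housekeeping genes. Tcf4 read 82.5 in fibers and 102 in epithelium (log2 ratio -0.30), and Tcf3 was below the floors. Scaled to housekeeping genes, Tcf4 passed 2-fold towards epithelium, with a log2 ratio of -1.14.

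Of 16 genes of the TGF-beta and activin branch, 7 were measured and 1 passed 2-fold. Acvr1b, the activin receptor ALK4, read 136 in fibers and 37.9 in epithelium, at least 3.05-fold higher in fibers by 1 probe of 3, with the others below the floors, and at least 1.71-fold when scaled to housekeeping genes. The signal transducers Smad2 (78.7 in fibers and 149 in epithelium) and Smad3 (248 in fibers and 340 in epithelium) had log2 ratios of -0.92 and -0.45. Scaled to housekeeping genes, no gene of this branch reached 2-fold towards fibers, and Smad2 (-1.76), Smad3 (-1.29) and the receptor gene Tgfbr1 (-1.10) reached it towards epithelium.

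**Figure D4:**
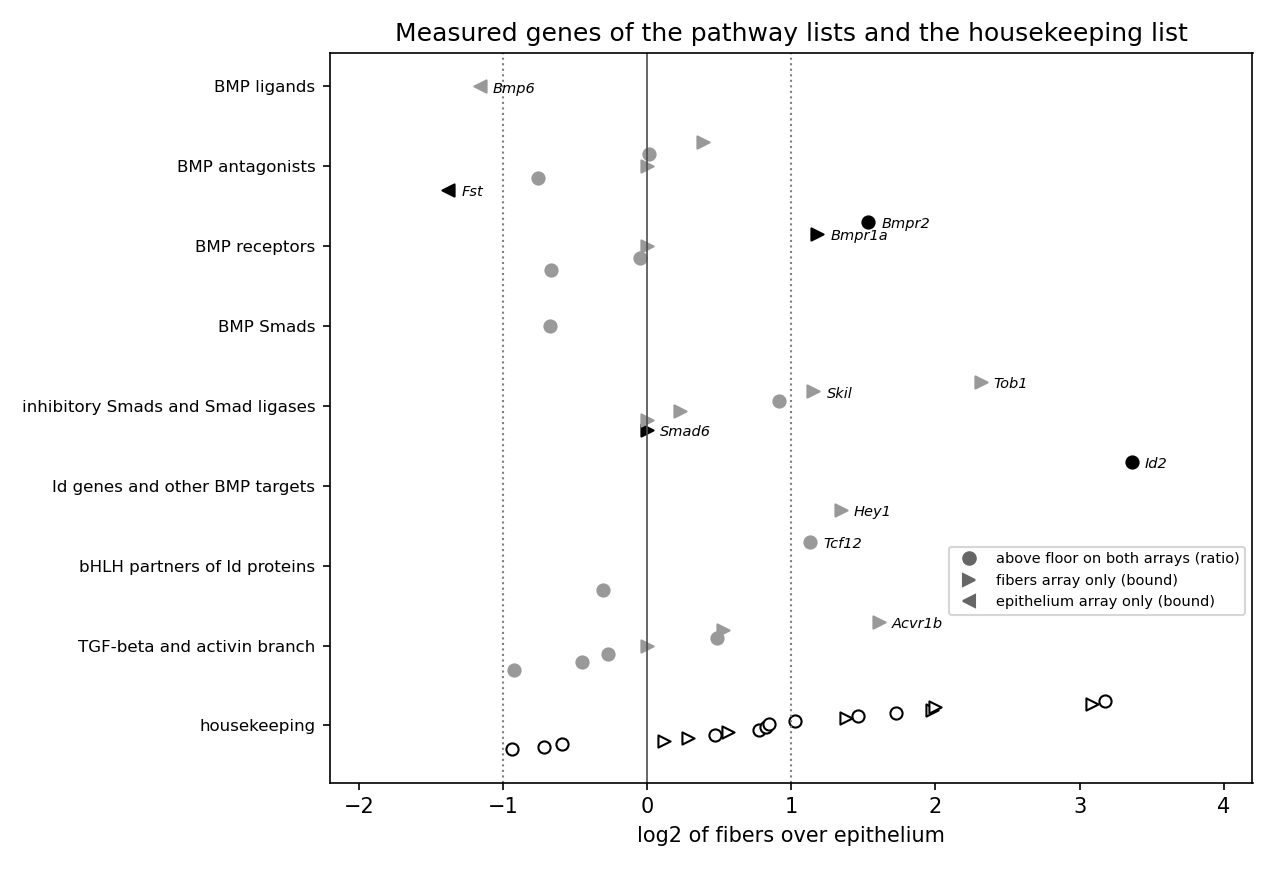
Log2 of fibers over epithelium (horizontal axis) for each measured gene of the 8 pathway lists and of the housekeeping list, with the genes described as members in black, other pathway genes in grey and housekeeping genes open. Circles are ratios, triangles are bounds that point to the brighter tissue, dotted lines mark 2-fold, and housekeeping genes have a median of 0.83.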

How the data were processed

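Fibers and epithelium of wild-type mouse lens at E12.5 were each measured on 1 1-colour Illumina array. The authors deposited 1 background-subtracted intensity per probe, in whole numbers on a linear scale, for 45281 probes, and the sources used here give neither the background method nor any scaling between arrays. The lowest deposited value was -16 on both arrays. Percentiles of the arrays differed by up to 0.58 (log2) near background and by at most 0.05 from the 75th to the 99th, and the values were quantile normalized on the linear scale, with tied values given a common mean. Of the probes, 34885 had 1 gene symbol in the platform annotation, 18 had several and 10378 had none. Symbols were updated by gene ID (34807 found). The brightest probe by mean of both arrays stood for a gene. There were no replicates, so there is no test, error or interval, and precision is limited by the number of arrays.

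The 10 genes and all lists were chosen with earlier results of these data known. All probes of the 10 genes are described. Genes of the other lists are named where they passed 2-fold, the genes next to Id2 by rank of ratio, and any other gene was chosen after its values were seen. Analyses used Python 3.11.15, pandas 2.3.3, numpy 2.4.6 and statsmodels 0.14.6. The steps were tested on simulated data with changes planted in bright probes only, so values near the floors and bounds were not covered.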

Additional observations from a re-analysis of the deposited data

How the results depend on the processing

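In all, 10 alternatives were run. The count of the 10 genes higher in fibers by 2-fold or more was 3 as reported, 2 with the floor at the 99th percentile and with the second brightest probe, and 1 when scaled to housekeeping genes. The count higher in epithelium was 1 as reported and 0 after the loess fit, with a common floor, with the floor at the 99th percentile and with the second brightest probe, which Fst does not have. For the 8 pathway lists, 8 genes were higher in fibers as reported, against 2 scaled to housekeeping genes, 3 with the 99th percentile floor, 5 with the mean of all probes and 4 with the second brightest probe. The number higher in epithelium was 2 as reported, 9 of 28 scaled to housekeeping genes (42.7% of all measured genes were), 6 of 29 at a 1.5-fold threshold (31.1% of all), and 0 after the loess fit, with the common floor, the 99th percentile floor and the second brightest probe. A higher floor and the second brightest probe leave fewer genes measured (17 and 8 of the pathway lists, against 29), and the cause of the other shifts was not tested. Id2 and Bmpr2, the members measured on both arrays as reported, stayed higher in fibers under all 9 alternatives run for the ratios. With the second brightest probe both had a bound only. Bmpr2 also had a bound only with the 99th percentile floor and with the mean of all probes. A bound was set to 0 where it would have changed sign, so Bmpr1a, Fst and Smad6 could hardly reverse. Nor could Id2 and Bmpr2 in the settings that gave them a bound only. The other 5 genes had no value to compare. Quantile normalization cannot show a difference in total RNA. Signal over background limits the 5 genes below the floors. No paired analysis was possible because each group has 1 array.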
